A study of Mus musculus with 18 samples.

Results

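The genes described here encode the signalling parts of the B cell receptor and its coreceptors. They are 9 genes chosen by symbol (Cd79a, Cd79b, Cd22, Cr2, Ms4a1, Syk, Lyn, Btk and Blnk) out of 21938 protein-coding nuclear genes of GENCODE M21, and all 9 were found. The data were ChIP-seq peak lists of splenic B cells from C57BL/6 mice that were Mir155-sufficient (WT) or Mir155-deficient (KO), a deficiency carried by every cell of the animal. The cells had been enriched by depletion of CD43+, Ter119+ and CD4+ cells and cultured for 2 days at 1% oxygen with IL-4 (4 ng/ml) and antibodies to CD40 (1 µg/ml) and to IgM (F(ab')2, 5 µg/ml), so the receptor encoded in part by these genes was itself engaged in every sample of both genotypes. One antibody recognised KDM2A, a histone demethylase, and the other H3K36me2, dimethylated lysine 36 of histone H3, which KDM2A removes. Each antibody had 3 lists per genotype (replicate 1 male, replicates 2 and 3 female), 12 lists in all, and the ages of the animals were not in the labels. The study asked whether loss of miR-155, a microRNA, changed where KDM2A binds and where H3K36me2 lies.

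The B cell receptor is a membrane immunoglobulin paired with a heterodimer of CD79A and CD79B, whose cytoplasmic tails carry the activation motifs. LYN phosphorylates these motifs, SYK docks on them, and the adaptor BLNK brings BTK and other enzymes to the complex. CR2 (CD21) lowers the threshold for activation when antigen carries complement, whereas CD22 is an inhibitory coreceptor. MS4A1 (CD20) is a tetraspanning protein of the B cell surface. KDM2A has a zinc finger that binds unmethylated CpG, and H3K36me2 is commonly depleted at CpG-rich gene starts and spread over gene bodies and the DNA between genes.

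All lists came without read counts, so depth is unknown and a missing peak can mean weak signal or a shallow library. KDM2A lists held 23372 to 29105 peaks in WT and 15387 to 21705 in KO. H3K36me2 lists held 85387 to 94136 peaks in WT and 37447 to 106720 in KO, and the male KO list was the longest of all. H3K36me2 peaks covered 4.17% to 5.32% of the genome in WT and 1.44% to 3.63% in KO, and KDM2A peaks covered 0.77% to 1.11% and 0.433% to 0.715%. Coverage was also computed with equal numbers of strongest peaks in each list and relative to the percent of the genome that each list covered.

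Sequence was examined first, because the members were chosen without it. In the 1 kb centred on the gene start, 2 of the 9 genes were CpG-rich, with an observed over expected CpG ratio above 0.6 and a GC content above 50%. These were Syk (78 CpG, ratio 0.768) and Lyn (68 CpG, ratio 0.774), both kinases. The other 7 genes held 8 to 22 CpG with ratios of 0.137 (Ms4a1) to 0.366 (Cr2), against medians of 41 CpG and 0.553 over all gene starts. Among all genes, a KDM2A peak within 2 kb of a transcription start site (TSS) in at least 2 of 3 WT lists was present at 76.5% of the 9733 CpG-rich starts and at 24.8% of the 12205 CpG-poor starts. All 7 CpG-poor members had such a peak, counted near any TSS, whereas CpG content was taken at the gene start alone. Of all 9 members, 6 had one in WT with the peak centre inside the window, and 7 within 1 kb of a TSS. Of the 9 genes, 6 had an entry in the RefSeq promoter table, and Cd79b, Ms4a1 and Lyn did not. The 250 bases before the GENCODE gene start are shown for 3 members that were under KDM2A peaks there in at least 2 WT lists and differ in CpG content, read from RefSeq's GRCm38.p6 genome, 5′ to 3′ on the strand of the gene, with each CG in capitals.
Cd79a, chr7:24897131-24897380, plus strand: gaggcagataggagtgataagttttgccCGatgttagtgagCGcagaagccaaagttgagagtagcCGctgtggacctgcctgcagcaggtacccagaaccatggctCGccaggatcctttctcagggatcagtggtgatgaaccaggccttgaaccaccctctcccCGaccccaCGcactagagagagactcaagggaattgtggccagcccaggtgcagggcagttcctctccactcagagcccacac
Cr2, chr1:195176717-195176966, minus strand: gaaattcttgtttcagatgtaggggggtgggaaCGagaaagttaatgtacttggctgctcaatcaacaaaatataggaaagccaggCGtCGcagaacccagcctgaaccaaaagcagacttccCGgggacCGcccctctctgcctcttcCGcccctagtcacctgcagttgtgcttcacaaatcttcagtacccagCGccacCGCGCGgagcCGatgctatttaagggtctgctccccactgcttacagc
Syk, chr13:52582923-52583172, plus strand: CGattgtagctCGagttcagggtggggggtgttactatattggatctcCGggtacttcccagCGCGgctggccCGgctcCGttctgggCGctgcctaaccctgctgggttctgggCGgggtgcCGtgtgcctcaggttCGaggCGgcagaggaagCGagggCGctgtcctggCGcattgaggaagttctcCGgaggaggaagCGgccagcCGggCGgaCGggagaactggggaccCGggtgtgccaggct
The Cd79a stretch holds 6 CG, and 59.0% of all genes have at least as many in the same window. The Cr2 stretch holds 11 CG, reached by 43.1% of genes, and the Syk stretch 21 CG, reached by 18.0%. KDM2A peaks covered all 250 bases of the Cd79a stretch in the 3 WT lists and 118, 158 and 236 bases in KO replicates 1, 2 and 3. The CpG-rich Syk stretch was covered over 88, 148 and 184 bases in WT and over 48, 0 and 250 bases in KO. At Cr2 the covered bases were 233, 0 and 56 in WT and 0, 0 and 135 in KO.

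The 2 genes of the signalling heterodimer stood out among the 9 by the width of KDM2A over them. Cd79a (chr7:24897381-24902197, plus strand, 4817 bp) was covered by KDM2A peaks over 100%, 100% and 75.8% of its body in WT and over 16.0%, 18.3% and 78.2% in KO. KO replicates 1 and 2 were far below all WT lists, and KO replicate 3 lay within the WT range. The difference of -54.4 percentage points (SE 18.5) had an unadjusted p of 0.026 and an adjusted p of 0.634 (limma, Benjamini-Hochberg over 14654 genes). No gene passed in this comparison (0% of those tested), and 6.52% were lower in KO at an unadjusted p under 0.05. With equal numbers of strongest peaks kept in each list, the difference at Cd79a was again -54.4 percentage points. KDM2A was not absent from the start of Cd79a in any list. The strongest peak within 2 kb of its TSS had folds over local background of 3.13, 3.41 and 3.09 in WT and 3.31, 3.20 and 2.72 in KO, which overlapped. What differed was the width of the called peaks, since 1 peak ran over the whole gene in WT replicates 1 and 2 and a pair of wide peaks lay over it in WT replicate 3, where KO replicates 1 and 2 held short separate peaks.

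Cd79b (chr11:106311341-106314762, minus strand, 3422 bp) kept wide KDM2A in most KO lists. Its coverage was 100%, 74.0% and 100% in WT, against 58.9%, 100% and 100% in KO, with a difference of -5.05 percentage points (SE 13.3, limma adjusted p = 0.879). The groups overlapped, and only the male KO list was below the WT lists. Promoter folds were 3.69, 3.74 and 3.17 in WT and 2.50, 2.98 and 3.53 in KO, the highest WT mean among the 9 genes (3.53 ± 0.316, SD, n = 3). Mean WT coverage of 91.9% ± 14.0 for Cd79a and 91.3% ± 15.0 for Cd79b (SD, n = 3) lay above that of 99.3% of all protein-coding genes. This ranking took no account of gene length, and these were the shortest of the 9 genes. Neither domain ended with the gene. Merged over the 6 lists, the KDM2A interval of Cd79a spanned chr7:24896266-24905743, and that of Cd79b chr11:106302795-106316052, beyond the 3′ end of the gene. The Cd79a interval held the start of Arhgef1, the next gene on the same strand, at chr7:24902912. In each of the 6 lists a KDM2A peak lay over that start. The merged interval therefore spans the starts of both genes, and the share of each in its width was not tested. A second interval upstream of Cd79b, chr11:106316464-106326573, lay partly in Scn4a.

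The H3K36me2 intervals that touched these 2 genes and were called in at least 2 lists were centred upstream of them. At Cd79a the merged H3K36me2 interval was chr7:24891789-24898132, centred at -2421 bp from the gene start, and it was called in 3 WT lists and 2 KO lists. At Cd79b it was chr11:106314229-106319633, centred at -2169 bp and called in all 6 lists. Within 6 kb past the 3′ end of Cd79b, in the span of its merged KDM2A interval, H3K36me2 peaks were also centred in 3 WT lists (4 peaks) and 2 KO lists (3 peaks). Within the bodies H3K36me2 was sparse, at 15.6%, 0% and 17.9% of Cd79a in WT and 13.4%, 0% and 0% in KO. At Cd79b it was 0%, 15.6% and 3.59% in WT, and every KO list was at 0%. In WT, every base of either gene under H3K36me2 was also under KDM2A of the same replicate number, where KDM2A covered the whole gene in 4 of the 6 cases. In KO replicate 1, 6.85% of Cd79a was under H3K36me2 only and 6.56% under both.

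**Figure D1:**
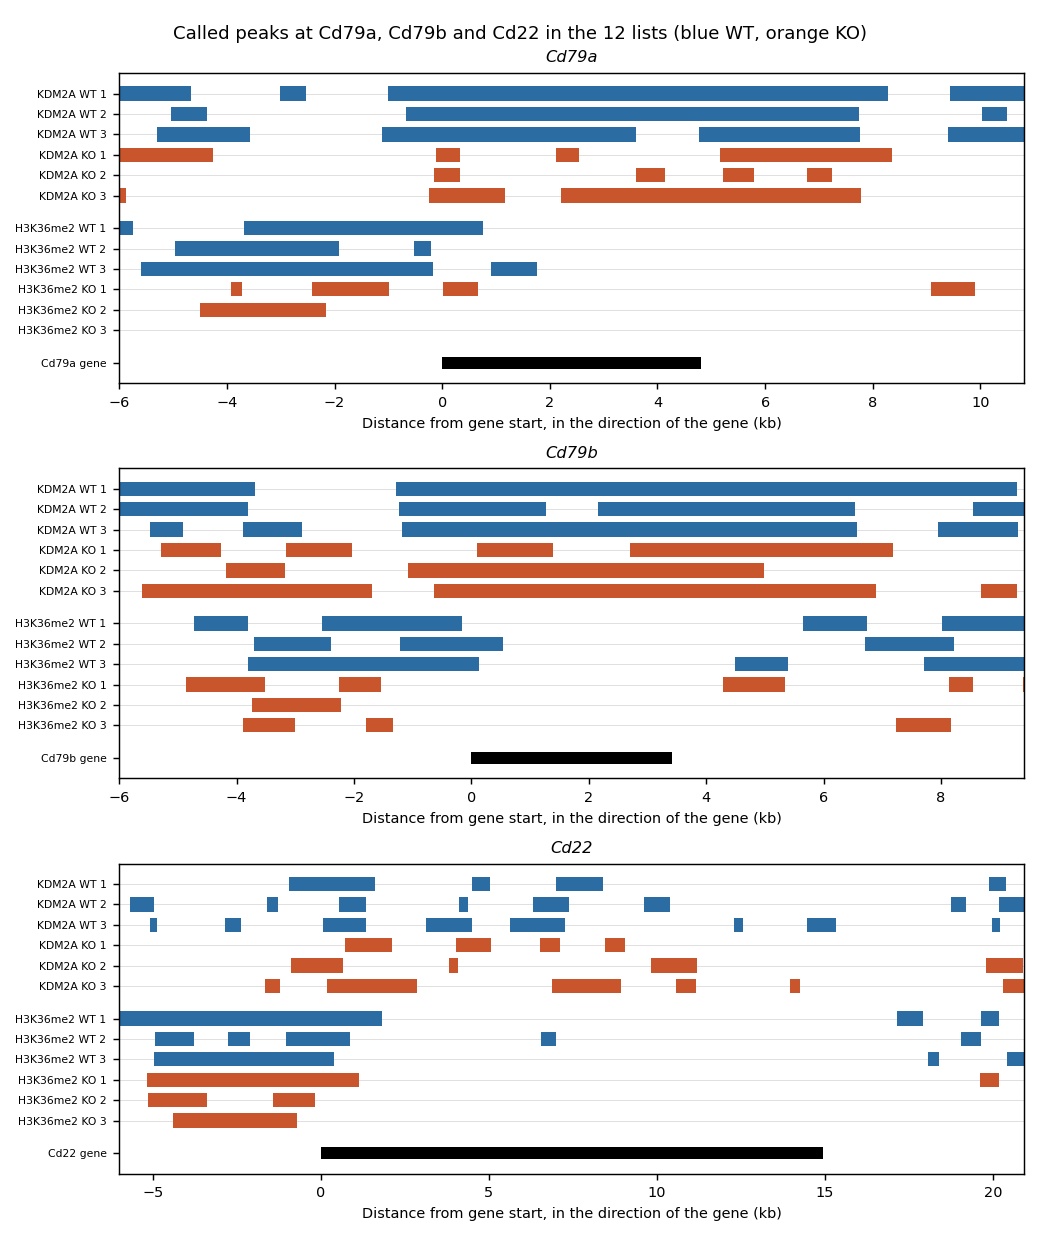
Called peaks of each of the 12 lists (rows, blue WT and orange KO) at Cd79a, Cd79b and Cd22, against the distance from the gene start in kb along the gene, with the gene as a black bar. KDM2A peaks spread over the Cd79a and Cd79b bodies, narrower at Cd79a in KO replicates 1 and 2, and H3K36me2 peaks lie before the start and past the 3′ end of each gene, at Cd79a in 5 lists before the start and in 1 list past the end.

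Among the coreceptors, Cd22 carried KDM2A over a mean of 25.7% of its body in both genotypes, with a wide spread between lists. Cd22 (chr7:30865402-30880342, minus strand, 14941 bp) was covered over 23.7%, 19.6% and 34.0% in WT and 24.0%, 15.3% and 37.9% in KO. The groups overlapped (limma difference SE 9.08 percentage points, adjusted p = 1). This coverage came from 3 to 5 separate peaks in every list, of which 3 merged intervals were called in at least 2 lists of both genotypes. The interval at the start, chr7:30877472-30881285, was called in all 6 lists. H3K36me2 again lay upstream, in a merged interval of 9588 bp (chr7:30878527-30888114) with peaks in all 6 lists. Its full width came from 1 peak of WT replicate 1, whereas the peaks nearest the start were 1252 bp in KO replicate 2 and 3675 bp in KO replicate 3. Over the body H3K36me2 coverage was 12.2%, 8.74% and 2.60% in WT, against 7.67%, 0% and 0% in KO, and the adjusted p of the difference was 0.442 (limma, -5.28 percentage points, SE 3.84). Without WT replicate 1 the difference was -3.12 percentage points, and with a −log10 q of at least 2 it turned to 2.56.

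Cr2 and Ms4a1 had narrow KDM2A peaks at the start that were called in fewer KO lists. At Cr2 (chr1:195136811-195176716, minus strand, 39906 bp) the promoter folds were 3.42 in WT replicate 1, 2.89 in WT replicate 3 and 2.62 in KO replicate 3, and no peak was called in the other 3 lists. The interval, chr1:195176199-195176949, is centred 142 bp inside the gene in a coding exon. By a rule adapted from the study (a mean fold over 3 in one genotype and, where both bind, a ratio above 1.17) it counted as WT-enriched. The fold used here is the deposited MACS2 fold averaged over the lists with a peak, which may not be the signal over input that the study used. At Ms4a1 (chr19:11249675-11266241, minus strand, 16567 bp) the folds were 2.80, 3.02 and 3.16 in WT, and 2.94 in KO replicate 1 with no peak in KO replicates 2 and 3. The fold of the 1 KO peak lay within the WT range. KDM2A covered 4.03%, 0.489% and 9.09% of the Ms4a1 body in WT and 0.302%, 0% and 0% in KO. All WT lists were above all KO lists, which also held for 12.9% of the 14654 genes, and the adjusted p was 0.634 (limma, -4.43 percentage points, SE 2.20). With the same number of strongest peaks kept in each list, the groups overlapped and the difference shrank to -0.24 percentage points. Without WT replicate 3 it was -2.16 with all peaks.

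H3K36me2 also lay upstream of Cr2 and Ms4a1, over stretches given here as merged over the 6 lists. The interval of Cr2 spanned 25476 bp (chr1:195175564-195201039) and that of Ms4a1 13101 bp (chr19:11266636-11279736), and both were called in all 6 lists. Among peaks reaching within 6 kb of the gene, the widest upstream peak of a single list was 6250 bp at Cr2 and 5620 bp at Ms4a1, below the 9588 bp at Cd22. Inside Cr2 the mark covered 5.39%, 0.782% and 1.46% of the body in WT and 1.00%, 2.08% and 0.581% in KO, with overlapping groups. Inside Ms4a1 it was present in 1 list only, WT replicate 2, at 5.06%.

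Lyn and Syk were laid out differently from the heterodimer genes, with narrow KDM2A peaks at the start and H3K36me2 peaks spread over the part of the gene nearer the start. Lyn (chr4:3678115-3813122, plus strand, 135008 bp) had a KDM2A peak at its start in all 6 lists, with folds of 3.43, 2.98 and 2.97 in WT and 3.07, 2.61 and 2.69 in KO, which overlapped. Syk (chr13:52583173-52648792, plus strand, 65620 bp) had one in 5 lists, with folds of 2.79, 3.10 and 2.54 in WT and 3.81 and 2.54 in KO replicates 1 and 3. Both intervals were centred in the 5′ UTR, 158 bp (Lyn) and 94 bp (Syk) from the gene start. KDM2A covered at most 2.64% of the Lyn body and 2.56% of the Syk body in any list.

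H3K36me2 covered 11.0%, 10.9% and 13.3% of Lyn in WT and 6.95%, 4.26% and 3.43% in KO. Every WT list was above every KO list, a separation also seen at 22.8% of the 12761 genes tested. The difference of -6.83 percentage points (SE 3.17) had an unadjusted p of 0.0691 and an adjusted p of 0.332 (limma), and no gene passed (0% called), while 15.4% were lower in KO at an unadjusted p under 0.05. With equal numbers of strongest peaks the values of Lyn were 3.25%, 3.21% and 5.95% in WT and 1.96%, 4.26% and 1.74% in KO, and the groups overlapped. Relative to each list's genome percent, the difference was -0.075 at Lyn (limma adjusted p = 0.977) and -0.34 at Syk (adjusted p = 0.884), as a ratio without unit. The number of H3K36me2 peaks over Lyn was 14, 13 and 17 in WT, against 16, 4 and 5 in KO. The male KO list thus held as many peaks as WT over less of the gene. Of 44 WT peaks centred in the gene, 40 were nearer its start than its end, as were 24 of 25 KO peaks. Merged intervals at Lyn called in at least 2 WT lists and in fewer than 2 KO lists numbered 11, and 5 were called in both genotypes. Over the genome, too, H3K36me2 intervals of the first kind (31793) outnumbered those of the second (20133).

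Syk showed the same layout, and 1 KO list, replicate 1, stood apart from the other two. H3K36me2 covered 11.2%, 13.4% and 13.0% of its body in WT and 11.5%, 2.58% and 2.72% in KO. The male KO list lay with the WT lists, and both female KO lists were far below them. That male KO list was also the longest and had the widest genome coverage of the 3 KO lists. With equal numbers of strongest peaks the values were 3.49%, 7.55% and 9.25% in WT, against 4.57%, 2.58% and 1.78% in KO, so that the groups overlapped and the difference shrank to -3.79 percentage points. With a −log10 q of at least 2 it was -0.39. With all peaks the difference was -6.95 percentage points (SE 3.86, limma adjusted p = 0.362). Of 18 WT peaks centred in Syk, 16 were nearer its start than its end, as were all 12 KO peaks. A merged H3K36me2 interval of 28329 bp (chr13:52557793-52586121), centred at -11216 bp from the gene start, was called in all 6 lists. Among single peaks reaching within 6 kb of the gene, the widest upstream of Syk measured 14360 bp. The strongest H3K36me2 peak in the body had folds of 2.97, 2.95 and 2.69 in WT and 2.95, 2.46 and 2.62 in KO. On the log2 scale, with each list centred on its median, the difference was -0.13 (SE 0.064, limma adjusted p = 0.857, with 0% of 3261 genes called).

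Btk (chrX:134542336-134583570, minus strand, 41235 bp) carried almost neither. A KDM2A peak within 2 kb of a TSS was called in the 3 WT lists, with folds of 2.94, 3.66 and 2.56, and in KO replicate 2 at 2.58. The interval that drew 2 of the WT peaks, chrX:134585340-134585822, was centred at -2011 bp and counted as WT-enriched by the adapted rule. The gene body held peaks in WT replicate 3 only, at 1.46% for KDM2A and 0.594% for H3K36me2. Btk is on the X chromosome, where male lists held 0.131% to 0.295% of their peaks and female lists 0.434% to 0.991%, so male and female values of this gene do not stand on the same footing. No list of either sex held more than 0.991% of its peaks there, and whether Btk differed from other genes of this chromosome was not tested.

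The adaptor gene Blnk (chr19:40928927-40994535, minus strand, 65609 bp) differed between its start and its body. At the start, KDM2A folds were 2.68 and 2.88 in WT replicates 1 and 2 with no peak in replicate 3, and 3.79, 3.25 and 2.68 in KO. The merged interval chr19:40993856-40997172, centred at -979 bp, was called in 1 WT list and in all 3 KO lists. It was the only KO-enriched interval at the 9 genes by the adapted rule, a call that was lost without KO replicate 1 and with a −log10 q of at least 2. Its strongest KO peaks did not share 1 place, at 299 to 679 bp from the gene start in replicate 1, 54 to 285 bp in replicate 2 and -1503 to 85 bp in replicate 3. Only the peak of WT replicate 2, from -2637 to 534 bp, joined the first of these to the others. In the body, KDM2A covered 13.4%, 5.55% and 5.07% in WT and 1.12%, 1.46% and 2.40% in KO. All WT lists were above all KO lists, as at 12.9% of genes tested (limma difference -6.35 percentage points, SE 2.62, adjusted p = 0.634). Without WT replicate 1 the difference was -3.65 percentage points, and with a −log10 q of at least 2 it was -2.85. The numbers of body peaks were 7, 6 and 4 in WT and 2, 3 and 4 in KO. Of its intervals in the body, 3 in introns were called in at least 2 WT lists and fewer than 2 KO lists, and 1 (chr19:40965278-40965560) was called in 2 KO lists and no WT list. With equal numbers of strongest peaks the coverage was 11.7%, 5.55% and 2.15% in WT, against 1.12%, 1.46% and 1.07% in KO, again without overlap, as at 6.84% of the 13399 genes covered in that setting. H3K36me2 lay in a merged interval of 21941 bp centred at -12899 bp, called in all 6 lists, and covered at most 2.56% of the body. Among single H3K36me2 peaks reaching within 6 kb of the gene, the widest upstream of Blnk measured 11477 bp.

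**Figure D2:**
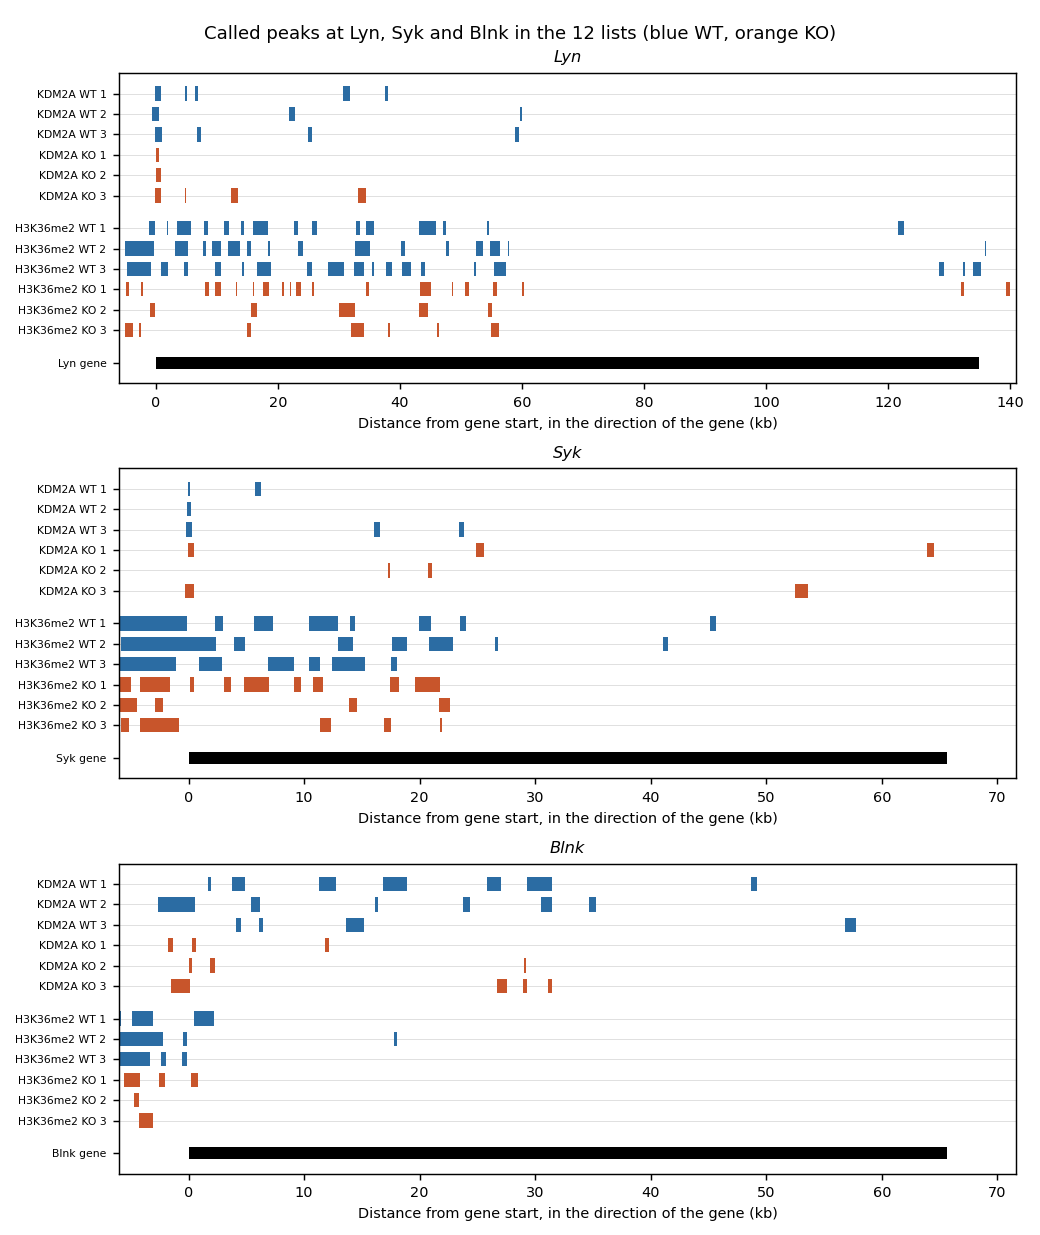
Called peaks of each of the 12 lists (rows, blue WT and orange KO) at Lyn, Syk and Blnk, against the distance from the gene start in kb along the gene, with the gene as a black bar. H3K36me2 peaks crowd the part of Lyn and Syk nearer the start with fewer in KO replicates 2 and 3, and scattered KDM2A peaks lie in the body of Blnk.

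Counted over the 9 genes, a KDM2A peak within 2 kb of a TSS in at least 2 of 3 lists was present at 9 genes in WT, against 47.7% of all genes, and at 6 in KO, against 41.7%. Cr2, Ms4a1 and Btk made the difference. It depended on the window, since with peaks centred inside the 2 kb the counts were 6 and 6, and within 1 kb of a TSS 7 and 6. An H3K36me2 peak over the body was present at 7 genes in WT, against 42.1%, and at 3 in KO (Cr2, Syk and Lyn), against 25.9%. With the peak centre inside the gene, or with all 3 lists required, these counts were 4 and 3. With a −log10 q of at least 2 they were 2 and 0. Within 2 kb of a TSS, H3K36me2 was called at 8 genes in WT, against 40.9%, and at 5 in KO, against 20.9%; KDM2A and H3K36me2 together were called at 8 genes in WT, against 32.2%, and at 3 in KO, against 14.5%. This last pair of counts was added after the values were seen. The 8 genes other than Btk each had an H3K36me2 interval centred upstream of the start that was called in at least 2 lists of both genotypes, as did 12.9% of all genes.

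Merged over lists, 60 KDM2A intervals touched the 9 genes, of which 8 were called in at least 2 lists of both genotypes (against 13.4% of the 67881 intervals of the genome), 7 in at least 2 lists of WT only (8.7%), 3 of KO only (2.18%) and 42 of neither. By the adapted rule 2 were WT-enriched, against 2.22% of all intervals, and 1 KO-enriched, against 0.464%. Leaving out any 1 of the WT replicates left 1 WT-enriched interval. Of 57 H3K36me2 intervals, 15 were called in both genotypes (against 11.2% of 179626), 13 in WT only (17.7%) and none in KO only (2.7%). H3K36me2 coverage was lower on average in KO at 9 of 9 genes, against 85.6% of genes tested, and KDM2A coverage at 6 of 9, against 74.7%. H3K36me2 coverage with equal numbers of strongest peaks was lower at 6 of 9, against 73.9%, while Cr2 was higher and Ms4a1 and Blnk were at 0 in every list. KDM2A coverage was on average higher in KO at Cr2 and Syk, by 0.832 and 0.919 percentage points (limma SE 0.746 and 0.737), and equal at Cd22. With a −log10 q of at least 2 the differences at Cr2 and Syk were -0.17 and 0.041 percentage points. The Syk values with equal numbers of strongest peaks were 0.239%, 0.309% and 0% in WT and 2.56%, 0.934% and 0.739% in KO, with all KO lists above all WT lists, as at 2.07% of genes, and a difference of 1.23 percentage points (limma adjusted p = 0.760). No member passed the adjusted threshold in any of the 4 limma comparisons. At an unadjusted p under 0.05 Cd79a alone was lower, in KDM2A coverage. The numbers of peaks over each gene gave no smaller p than 0.2 in 18 two-sided exact permutation tests, in which 0.1 is the smallest p that 3 against 3 lists allow, and every adjusted p was at least 0.9.

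The KDM2A promoter fold could be tested at the 4 members with a peak in all 6 lists. Log2 differences were -0.18 at Cd79b (SE 0.13), -0.10 at Lyn (SE 0.11), -0.0037 at Cd79a (SE 0.11) and -0.00019 at Cd22 (SE 0.097), each with a limma adjusted p of at least 0.914. Single lists moved these values, from -0.054 (without KO replicate 1) to -0.30 (without KO replicate 3) at Cd79b, and to -0.0092 without WT replicate 1 and -0.17 without KO replicate 1 at Lyn. None of the 4 was separated between genotypes, against 10.1% of the 5786 genes with all WT lists higher and 2.13% with all KO lists higher, and 0% of genes were called. The other 5 members could not be tested in this way, because at least 1 list held no peak.

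**Figure D3:**
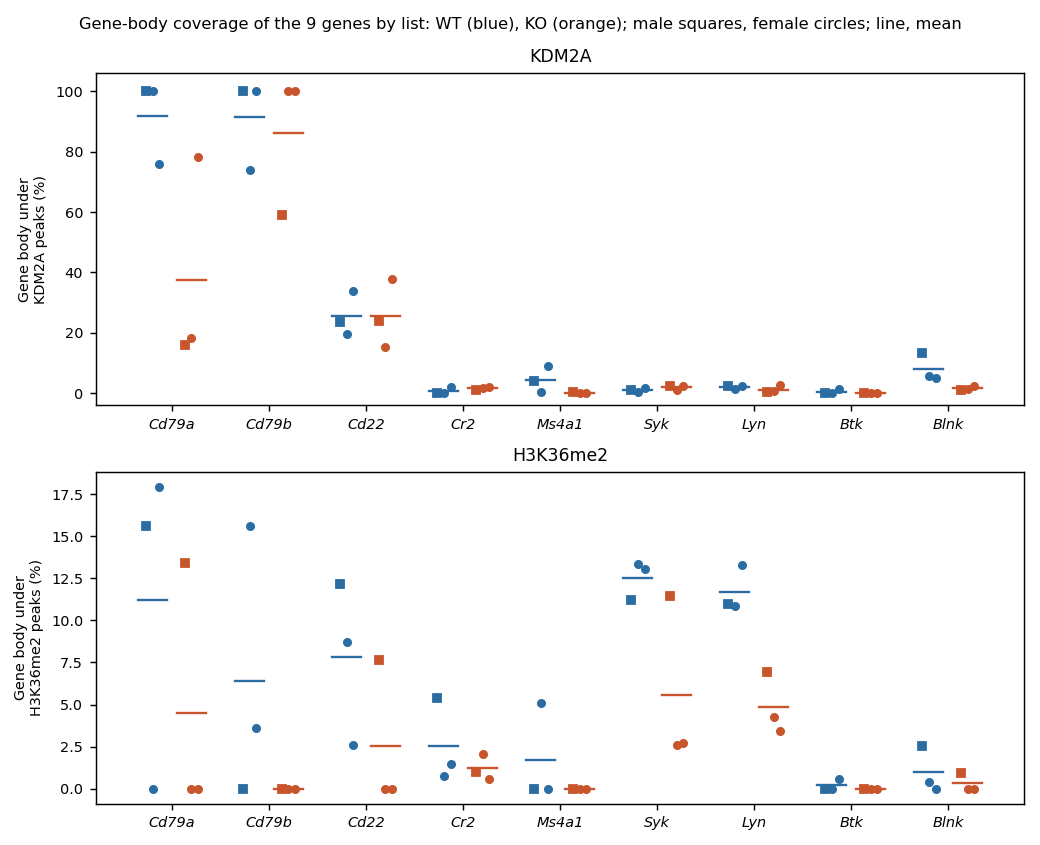
Percent of the gene body under KDM2A peaks (upper panel) and under H3K36me2 peaks (lower panel) in each list for the 9 genes, WT in blue and KO in orange, male lists as squares and female lists as circles, with lines at the means. Cd79a and Cd79b stand near the top for KDM2A, and Lyn alone has all WT lists above all KO lists for H3K36me2.

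**Figure D4:**
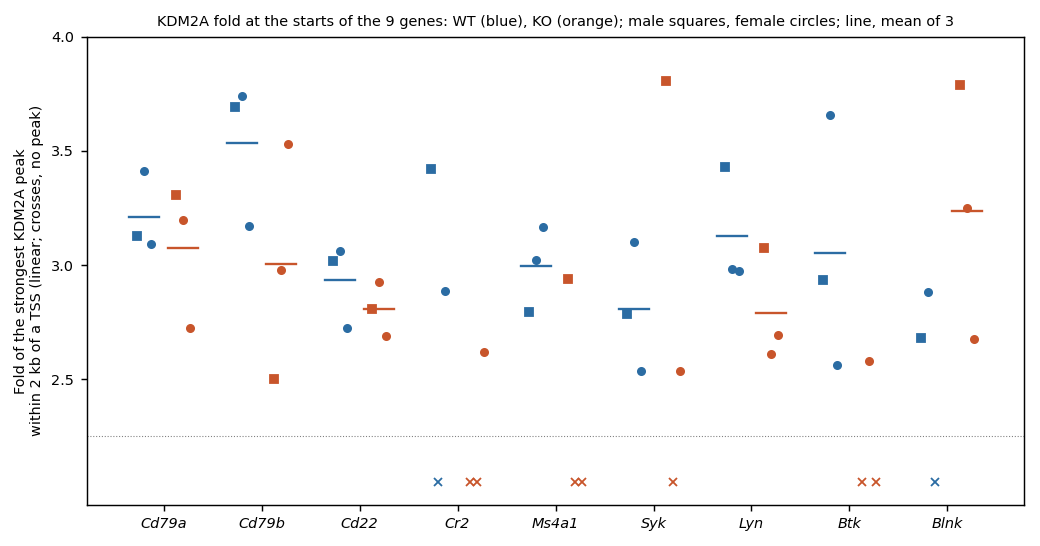
Fold of the strongest KDM2A peak within 2 kb of a TSS in each list for the 9 genes on a linear axis, WT in blue and KO in orange, male lists as squares and female lists as circles, with lines at means of 3. Crosses under the dotted line mark lists without a peak, 2 of which lie in WT and 7 in KO.

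The 33 other genes of the receptor pathway were counted in the same way. A KDM2A promoter peak was present in at least 2 WT lists at 33 of 33, against 47.7% of all genes, and in at least 2 KO lists at 28, against 41.7%. Mean H3K36me2 coverage was lower in KO at 33 of 33, against 85.6% of genes tested. The median difference was -5.82 percentage points beside -5.28 for the 9 members and -3.25 over all genes tested. In limma 0 passed, and 11 had an unadjusted p under 0.05, all lower, against 15.4% of genes tested. The lowest differences were at Cd5, a negative regulator of receptor signalling (-29.3 percentage points, SE 11.6, adjusted p = 0.317), and Ptpn6, which encodes the phosphatase SHP-1 recruited by CD22 (-16.3, SE 4.86, adjusted p = 0.304). In KDM2A promoter fold 22 could be tested, with 11 on either side of 0. The log2 differences ran from -0.14 at Bcl10, an adaptor of NF-kB signalling, to 0.15 at the adaptor Dok1 and 0.20 at Plcg2, the phospholipase downstream of BTK (limma adjusted p of at least 0.914).

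The T cell counterparts of the members were counted too. Among 12 T cell receptor and coreceptor genes, 5 had a KDM2A promoter peak in at least 2 WT lists, against 47.7% of all genes, and 2 in at least 2 KO lists, against 41.7%. Their median H3K36me2 coverage in WT was 21.2%, beside 6.40% for the 9 members and 0.526% for all genes. Zap70, the T cell relative of SYK, was under H3K36me2 over 37.4% ± 8.22 (SD, n = 3) of its body in WT, against 14.9% ± 15.3 (SD, n = 3) in KO, and the difference had a limma adjusted p of 0.325. Summed over the 12 genes, H3K36me2 covered 28.9% to 36.6% of their length in WT and 11.0% to 25.5% in KO, and KDM2A 3.06% to 4.75% and 1.50% to 2.15%. Of 9 myeloid genes none had a KDM2A promoter peak in at least 2 lists of either genotype, and 6 had no KDM2A over the body in any list. H3K36me2 covered 13.8% to 24.3% of their summed length in WT and 7.23% to 14.7% in KO. Of 6 other B lineage genes (1 of which is also among the 33) 6 had a KDM2A promoter peak in WT and 5 in KO. Wide KDM2A was not particular to the heterodimer genes, since the median WT coverage of these 6 was 63.1% and 4 of them were covered over more than 50%. Among the 33, chosen here after their values were seen, Cd72 was covered over 74.5%, Ptpn6 over 74.2% and Dok1 over 73.9% of the body in WT. Peak lists do not measure expression, so these lists describe chromatin at marker genes, and the part of other cells in the peaks was not tested.

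**Figure D5:**
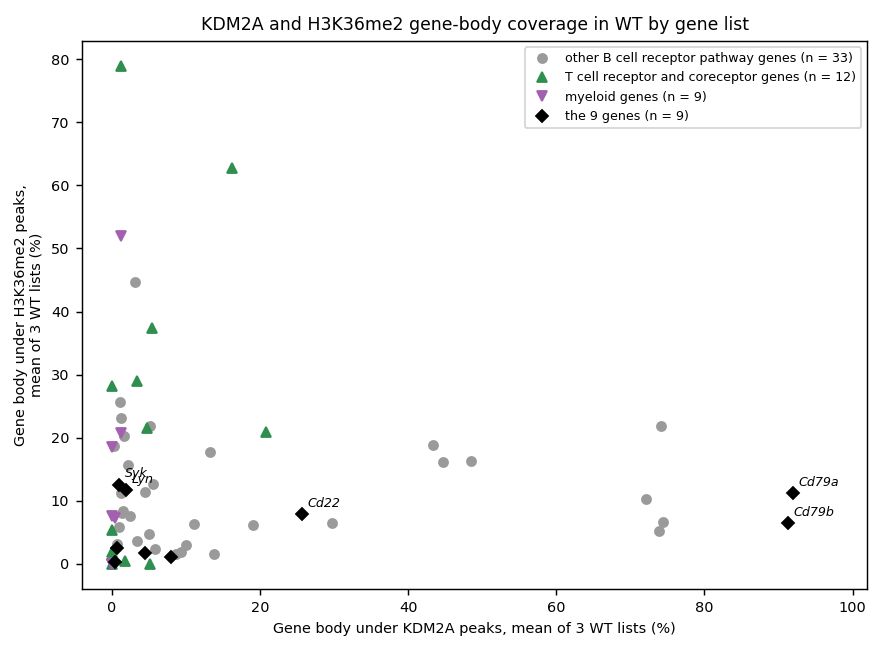
Mean percent of the gene body under KDM2A peaks (x axis) and under H3K36me2 peaks (y axis) over the 3 WT lists, 1 point per gene, for the 9 genes (black diamonds), 33 other B cell receptor pathway genes (grey), 12 T cell receptor and coreceptor genes (green) and 9 myeloid genes (purple). Of the genes drawn, which leave out the other B lineage list, Cd79a and Cd79b lie farthest right, and T cell genes reach the highest H3K36me2 coverage.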

How the data were processed

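Peak lists of 12 ChIP-seq libraries (KDM2A or H3K36me2, WT or KO, 3 each) were used, and 6 input libraries entered only as the authors' control. Using nf-core/chipseq, the authors mapped reads to GRCm38 by BWA and made 1 MACS2 broad peak list per library without pooling, and the submitters' processing notes also name bedtools. The deposited fold of a peak is a ratio over local background that was not scaled across libraries. Also deposited were −log10 of a p-value and of a q-value, with a smallest −log10 q of 1.0, a q of about 0.1. Read filters and caller versions were not given in the sources used here. Depth is unknown, so no counting interval is given.

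Genes and TSS were from GENCODE M21. For each gene the strongest fold within 2 kb of any TSS, the percent of the body under peaks and the strongest fold over the body were taken per list. Starts were converted to 1-based positions. Overlaps counted from 1 bp. Genes with coverage in at least 1 list, or with a fold in all 6 lists, were tested in R 4.3.3 by limma 3.58.1 (eBayes with a trend, folds as log2 centred per list, Benjamini-Hochberg, threshold 0.05), without a replicate block. Python 3.11.15 was used for the rest, with numpy 2.4.6 and pandas 2.3.3. Replicates are labelled as separate samples, but nothing says that antibodies of 1 number share an animal. The limma step was tested on simulated data. All 9 members were named, and of other lists at most 2 genes per direction by the largest difference in H3K36me2 coverage or KDM2A promoter fold, and some that this rule names are not reported here. Members and lists were chosen with earlier results of these data known.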

Additional observations from a re-analysis of the deposited data

Results flagged for a closer look

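H3K36me2 coverage of Syk differed in opposite directions in the male and female lists. The male KO list was 0.236 percentage points above the male WT list, whereas the mean of the female KO lists was -10.5 percentage points relative to the female WT lists, with both female KO lists below both female WT lists. With 1 male list per genotype, no test of male against female lists was made, so the difference was not tested. Of 52 gene and measure pairs with a value in every list, 10 had mean differences of opposite sign in the male and female lists. No such count was made over all genes, so whether 10 is unusual was not tested. In 2 of these pairs the female lists also did not overlap. The other was the number of H3K36me2 peaks over Lyn, with a male difference of 2 and a female difference of -10.5, again not tested. The widest gap of the 10 was at Cd79b, whose KDM2A coverage differed (KO minus WT) by -41.1 percentage points in the male lists and by 13.0 in the female lists, where 1 WT list equalled both KO lists. The male KO list was the longest of the H3K36me2 lists, at 106720 peaks. With equal numbers of strongest peaks in each list the male difference in Syk coverage was 1.08 and the female difference -6.22 percentage points, so the opposite signs remained.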

How the results depend on the processing

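Over all alternatives computed no member reached an adjusted p under 0.05 (limma), and the smallest was 0.138, at Syk in H3K36me2 coverage without KO replicate 1. Of 271 recomputed changes of members, 255 kept their direction or belonged to KDM2A coverage of Cd22, whose main change was 0. The replicate block kept the direction of all 25, and same-numbered WT and KO lists did not deviate together (correlations of deviations across genes from -0.078 to 0.081). Counts of genes called by limma were 0 for each of the 4 measures and became 1 for H3K36me2 body fold with the replicate block and with the percentile rank of the fold, 1 for H3K36me2 coverage with −log10 q of at least 2, and 1 for KDM2A coverage without the first 2 kb of the gene. Leaving out single replicates gave 0 to 8 genes in KDM2A coverage, with 8 without KO replicate 1 and 3 without KO replicate 2, and 0 in the other measures. At an unadjusted p under 0.05 the counts were 299 (KDM2A promoter fold), 183 (H3K36me2 body fold), 1965 (H3K36me2 coverage) and 1001 (KDM2A coverage). Raising the −log10 q to at least 2 left a KDM2A promoter peak at 3 members in KO, an H3K36me2 body peak at 2 in WT and 0 in KO, and 4 WT-enriched and 0 KO-enriched intervals. A KDM2A promoter peak was at 6 members in WT and 6 in KO with peaks centred inside the window, and at 7 and 6 within 1 kb of a TSS. An H3K36me2 body peak in WT was at 4 members with the peak centre inside the gene and at 4 when all 3 lists were required. Leaving out single replicates gave 1 to 3 WT-enriched and 0 to 1 KO-enriched intervals.

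Directions reversed as follows, and the cause was not tested. With −log10 q of at least 2, the H3K36me2 coverage changes of Cd22 and Cr2 were 2.56 and 0.33, and the KDM2A coverage change of Cr2 was -0.17. The H3K36me2 coverage change of Cr2 was 0.15 with equal numbers of strongest peaks and 0.091 when each gene's coverage was set against the list's genome-wide percent, a ratio without unit, for which the KDM2A change of Cd79b was 63.2. The H3K36me2 fold change of Cr2 was -1.26 as a percentile rank. Without single replicates the promoter fold changes ran from -0.055 to 0.090 at Cd79a and from -0.047 to 0.046 at Cd22, the H3K36me2 coverage changes from -2.20 to 0.10 at Cr2 and from -1.17 to 0.11 at Blnk, and the KDM2A coverage change from -13.7 to 8.66 at Cd79b. Unknown depth limits every coverage value.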
